A study of Mus musculus with 3 samples.

Results

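Paneth cells (PCs) sit at the base of small intestinal crypts, where they release granules of antimicrobial proteins into the lumen and feed neighbouring stem cells. The alpha-defensins are the leading product of these granules in mice. They are made as precursors that the protease Mmp7 cuts into active peptides, and they are encoded by a large family of near-identical genes in tandem on chromosome 8. The cells described here are the most defensin-rich cells of ENR+CD organoids, that is, mouse small intestinal organoids driven towards the PC fate. They were chosen by their measured values: a cell of the ENR+CD library with 1000 to under 8000 UMIs (unique molecular identifiers, each counting 1 captured transcript) and at least 400 genes became a member when symbols starting with Defa made up 20% or more of its UMIs. Of 2383 kept ENR+CD cells, 286 (12%, exact Clopper-Pearson 95% interval 10.7% to 13.4%) were members, out of 5913 kept cells in the 3 libraries.

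The study profiled organoids by Seq-Well, in which single cells and barcoded capture beads share nanowells. ENR medium, the conventional culture, took its name from its factors: 50 ng/mL of EGF, the BMP inhibitor Noggin (100 ng/mL) and the Wnt amplifier R-spondin 1, added at 500 ng/mL. ENR+CD added 3 µM CHIR99021, which activates Wnt signalling by inhibiting the kinase GSK3, and 10 µM DAPT, a gamma-secretase inhibitor that blocks Notch signalling. ENR+CV combined the same dose of CHIR99021 with 1 mM valproic acid, a histone deacetylase inhibitor. Each medium gave 1 library at day 6, from 6 wells of organoids that shared 1 donor, a mouse of 3 to 6 months. With 1 library a medium and cells that are no replicates, no test was possible. Intervals are exact (Poisson for a level, binomial for a ratio), at 95%, and cover counting error only, and each SD is over cells.

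The library came with conflicting labels. The merged table calls these cells OrgPC1A, the source name of the ENR+CD sample, whereas the per-barcode table with identical counts is attached to the ENR+CV sample. The merged name was followed. All 2506 merged columns matched the per-barcode column of the same number. None of the members shared a barcode with the ENR or ENR+CV tables, and 3 of the 286 were 1 letter away from another kept barcode. Doublets were not called, and 18 members (6.29%) and 115 of the 2097 other ENR+CD cells (5.48%) held 4000 or more UMIs.

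Defensin share ran as a continuum through the library rather than as a separate peak. The median kept ENR+CD cell gave 10.2% of its UMIs to Defa symbols (quartiles 4.34% and 15.3%, highest 44.0%). Members had a median of 24.7% and a mean of 25.9% ± 5.11 (SD, n = 286 cells), which describes the choice and is no finding. Just outside the limit lay cells with 251 of 1256 UMIs (19.98%) and 368 of 1844 UMIs, and just inside lay cells with 441 of 2205 and 252 of 1260. Within 1 point of the limit there were 42 cells below and 41 above. Members made up 13.4% of the UMIs of the kept library and 33.7% of its Defa UMIs, so that 66.3% of the Defa UMIs lay in the other cells. Of ENR cells, 64 of 2545 (2.51%, 1.94% to 3.2%) met the same limit, and of ENR+CV cells 8 of 985 (0.812%, 0.351% to 1.59%).

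**Figure D1:**
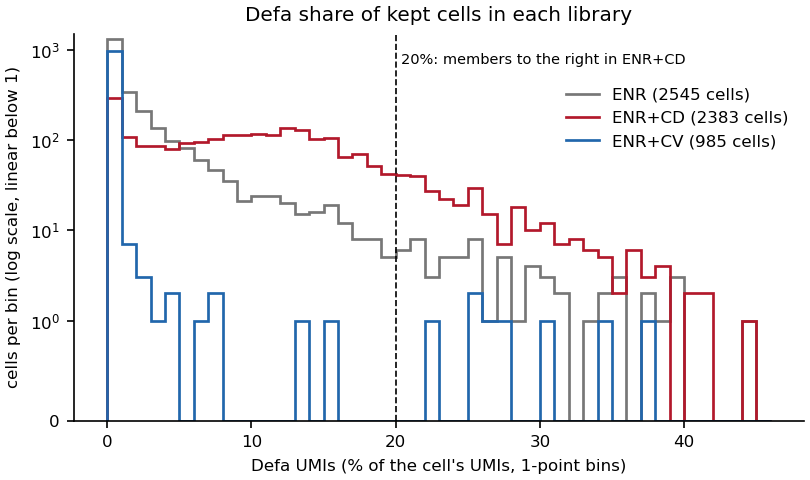
Number of kept cells (y axis, log scale above 1) in each 1-point bin of the share of UMIs on Defa symbols (x axis, %), with 1 line for each library and a dashed line at 20%. The ENR+CD line is broad, with a median of 10.2%, and passes the limit with no gap, whereas the ENR median is 0.909% and the ENR+CV median 0.0379%.

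The filter on genes took away more defensin-rich cells than other cells. Of the 46 merged ENR+CD cells under 400 genes, 43 were at 20% Defa or above, with a median of 367.5 genes among 1211.5 UMIs. Another 22 of 77 cells at 8000 or more UMIs met the limit. Members held more UMIs but fewer genes than the rest. Their median was 1738 UMIs and 623.5 genes, against 1516 UMIs and 787 genes in the other cells, and without Defa their median of 1303 UMIs was below the 1365 of the others. After removal of Defa UMIs and thinning of every cell to 500 UMIs, members held a median of 288.5 genes (quartiles 258 and 309.75) and the others 353 (quartiles 333 and 373).

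Within the members, 2 genes carried most of the Defa UMIs. Defa24 (chr8:21734494-21735471, GRCm38) took 15% ± 3.31 (SD) of a member's UMIs, from 4.75% to 24.8%. Defa17 (chr8:21655780-21656735) took 7.43% ± 2.46, from 2.75% to 17%. Both were found in all 286 members. Defa3 followed at 1.04% ± 0.444, Defa21 and Defa22 at 0.577% ± 0.597 and 0.514% ± 0.702, and Defa26, Defa-rs7, Defa23 and Defa5 lay between 0.0553% and 0.157%. Defa20 had 6 UMIs in the members, and Defa2 had 0 of 607348, with 6 in the other cells.

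The letters starting Defa did not cover the whole family. A further 14 alpha-defensin genes in the table carry older Gm or AY symbols, and RefSeq lists 12 of them under a Defa name. The first was Gm15284 (now Defa30, chr8:21134650-21135598), with 57071 UMIs in the members, more than Defa17 (46576). These 14 genes took another 11.4% ± 6.14 (SD) of a member's UMIs, from 1.43% to 29.1%, and brought the mean alpha-defensin share to 37.2% and the highest to 61.5%. In the other cells they took 3.99% ± 3.36. When they were counted with Defa in the rule, 745 cells reached 20% in place of 286.

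The leading genes differ by few bases, which matters for how reads are assigned. The last 105 bases of the coding sequence, stop codon included, are shown for Defa24 and, from GENCODE vM21 transcripts on GRCm38, for the genes next in UMIs and for Defa21, which stands apart. Capitals mark bases that differ from Defa24 in the alignment of the whole coding sequences, and all lie on the plus strand of chromosome 8, at chr8:21735273-21735377 for Defa24, chr8:21135399-21135503 for Gm15284, chr8:21656537-21656641 for Defa17, chr8:21288179-21288283 for Defa3 and chr8:21026319-21026423 for Defa21.
Defa24: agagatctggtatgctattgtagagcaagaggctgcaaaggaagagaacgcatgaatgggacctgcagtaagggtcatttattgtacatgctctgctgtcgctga
Gm15284: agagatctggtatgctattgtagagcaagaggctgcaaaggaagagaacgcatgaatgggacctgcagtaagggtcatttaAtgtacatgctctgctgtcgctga
Defa17: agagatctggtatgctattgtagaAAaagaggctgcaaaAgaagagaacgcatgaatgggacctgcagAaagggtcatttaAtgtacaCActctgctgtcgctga
Defa3: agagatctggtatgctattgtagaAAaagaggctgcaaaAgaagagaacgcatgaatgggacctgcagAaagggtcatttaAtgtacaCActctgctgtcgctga
Defa21: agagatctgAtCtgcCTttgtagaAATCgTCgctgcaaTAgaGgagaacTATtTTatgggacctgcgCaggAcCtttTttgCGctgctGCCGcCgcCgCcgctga
Over the whole coding sequence, Gm15284 was 98.6% identical to Defa24 (4 differences in 282 positions) and Defa17 95.7% (12 differences). Defa3 and Defa17 did not differ at any of 282 positions, and their transcripts differed at 1 position in the last 150 bases, the end from which poly(A) capture reads. Defa21 was 80.8% identical to Defa24. Among 26 family members compared with Defa24, identity ran from 63.9% to 98.6%, with a median of 83.5%. UMIs of Defa24, Gm15284, Defa17 and Defa3 are therefore uncertain as counts of single genes.

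Read support of these UMIs stood far below that of other genes. In kept ENR+CD cells, the median gene with 500 or more UMIs had 21.6 reads per UMI (quartiles 12.8 and 27.2, 1247 genes). Defa24 had 4.17 reads per UMI, Gm15284 4.03, Defa17 2.72 and Defa3 1.39, and 11 of the 20 defensin genes of that depth were under 2, against 38 of all 1247 genes (3.05%). Over the members, a Defa UMI rested on 3.62 reads and any other UMI on 18.3. On reads in place of UMIs, Defa symbols held a median of 5.90% in the members (3.57% to 18.2%) and 1.66% in the others, and no cell reached 20%. The choice of cells was less affected, since 257 of the 286 cells with the largest Defa share of reads were members. Whether each of these UMIs counts 1 molecule cannot be told from the tables, and the Defa share, the limit of 20% and the shares of single genes all rest on them.

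**Figure D2:**
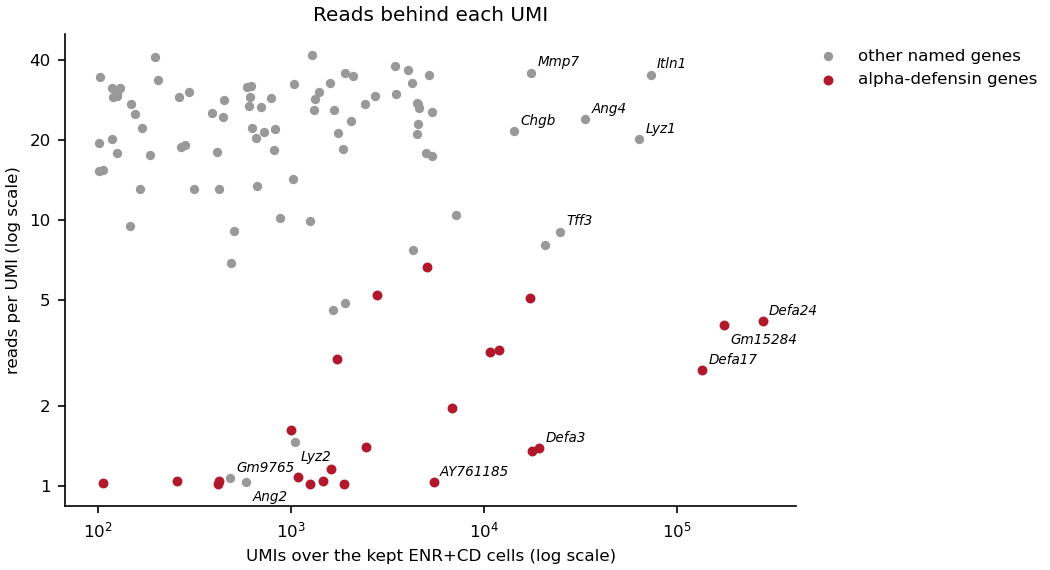
Reads per UMI (y axis, log scale) against UMIs over the kept ENR+CD cells (x axis, log scale) for named genes of 100 or more UMIs, with the alpha-defensin family in red. Defensin genes lie between 1.01 and 6.67 reads per UMI, below Lyz1 (20.1), Ang4 (24), Itln1 (35.2) and Mmp7 (35.8), and Lyz2 (1.46) and Ang2 (1.03) lie apart from their near copies Lyz1 and Ang4.

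The mix of Defa genes was close between members and the other cells, and differed from that in ENR. Defa24 made up 57.5% of the Defa UMIs of members and 58.1% of those of the other ENR+CD cells, and Defa17 made up 28.7% and 27.9%. In the 5493 barcodes under 1000 UMIs of the same library, where Defa symbols held 8.59% of the UMIs, the shares of Defa24 and Defa17 were 58.7% and 28.2%. ENR cells at 20% or more gave 68.5% to Defa24, 24.8% to Defa17 and 0.920% to Defa3, the last against 4.18% in members. How far Defa UMIs in single cells come from free RNA was not tested.

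Single members, by contrast, used the family unequally. As a share of a cell's own alpha-defensin UMIs (median 665 a member), Gm15284 ran from 4.10% to 46%, with a median of 24.2% and quartiles of 16.2% and 30.4%. There were 32 members at 4% to 8%, 19 at 12% to 16% and 55 at 28% to 32%, so the distribution had a low group and a broad upper peak. Its variance over members was 40.9 times that of counting alone, against 25.8 for Defa17, 18.3 for Defa24, 23.1 for Gm14851 (now Defa38) and 1.32 for AY761185. Defa21 (0 to 8.47%) and Defa22 (0 to 14.4%) also varied more than counting gives, by 11.2 and 17.2 times. A wide spread was not particular to members. In 1457 other ENR+CD cells with 100 or more alpha-defensin UMIs, the Gm15284 share ran from 2.49% to 50.6%, with a median of 24.8%. Its SD was 7.45 points there and 9.72 in members. The Defa17 share in those cells ran from 1.05% to 47.4%.

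Pairs of family genes differed in how far they varied together. Over the 286 members, with each gene set per UMI outside the family, Gm15284 and Gm14851 had a rank correlation of 0.70, Defa21 and Defa22 of 0.63, Gm15284 and Defa22 of 0.56, Defa17 and Defa3 of 0.66 and Defa17 and Defa24 of 0.62. Defa17 had values near or below 0 with Gm15284 (0.06), Gm15315 (-0.01), Defa21 (-0.12) and Defa22 (-0.19). Defa24 and Defa3, by contrast, had positive values with Gm15284 as well (0.50 and 0.32), so on this scale the genes did not fall into separate sets. Values per UMI outside the family share that divisor, which can raise the correlation of any pair. Shares of the cell's defensin UMIs, which must trade off against each other, gave -0.82 for Gm15284 with Defa17, -0.80 with Defa24 and -0.41 with Defa3. Members rich in Defa17 were also richer in Spink4 (0.53) and Tff3 (0.52), which for Defa22 gave -0.36 and -0.24. These are descriptions over cells of 1 library, in which the points share a donor, a depth range and, for close copies, reads. Position on the chromosome did not order these values throughout. Gm14851, Gm15284, Defa21 and Defa22 lie within chr8:21025545-21163249, but Gm15315, at chr8:21665797-21666733 between Defa17 and Defa24, had 0.58 with Defa22, 0.51 with Defa21 and 0.43 with Gm15284, and Defa3 lies apart from Defa17, at chr8:21287409-21288377. In the 64 defensin-rich ENR cells the Gm15284 share ran likewise from 2.93% to 36.2%, with a median of 14.2%.

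**Figure D3:**
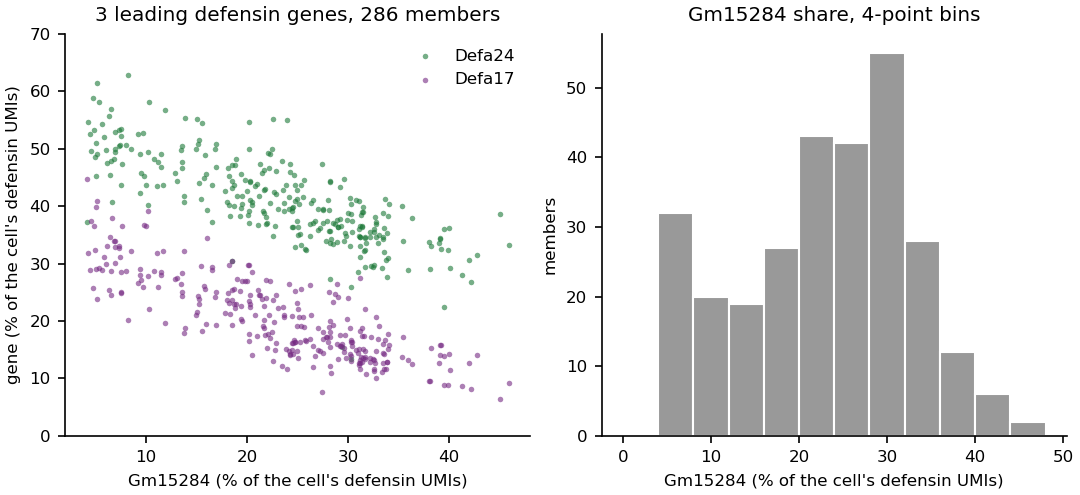
Left, share of a member's alpha-defensin UMIs on Defa24 (green) and Defa17 (purple) against that on Gm15284 (% on both axes, 1 point for each gene and cell, 286 members). Right, number of members in each 4-point bin of the Gm15284 share. Both other genes fall as Gm15284 goes from 4.10% to 46%, and the right plot has 32 members at 4% to 8% and 55 at 28% to 32%.

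The listed promoters of Defa symbols shared a short letter pattern that Wnt effectors of the TCF family are known to bind. RefSeq promoters (GRCm38.p6, 250 bases before to 50 after the start) were listed for 5 Defa symbols, namely Defa21, Defa23, Defa22, Defa2 and Defa20, which are minor genes here, and not for Defa24 or Defa17. The pattern searched on both strands was CTTTG followed by 2 letters that are each A or T. All 5 held 2 matches, at 112 and 72 bases before the start or, for Defa23, 114 and 74, whereas 16.9% of all 32851 promoters held at least 1 and 1.94% at least 2. The 5 are members of the same tandem family, so they do not count as independent promoters. The stretch from 130 to 51 bases before the start of Defa22, with the matches in capitals, is at chr8:21162147-21162226 on the plus strand, and Defa21 has the same letters at chr8:21025415-21025494.
Defa22: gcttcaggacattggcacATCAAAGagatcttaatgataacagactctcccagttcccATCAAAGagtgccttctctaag
The promoter of the family member AY761185 held no match, nor did those of Lyz1, Ang4, Nupr1 and Itln1. The listed Mmp7 promoters overlap and hold 1 and the same match. A match is a stretch of letters and says nothing of binding in these cells.

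Outside the Defa genes, members were compared with the other ENR+CD cells on the UMIs left, 445234 in members and 3612716 in the rest. Levels are given in CPM, that is, counts scaled to 1000000 of these UMIs. On this scale the median of 8493 genes with 50 or more UMIs stood at a log2 ratio of -0.53 (a ratio of 0.691). Paneth granule genes took 15.9% of these UMIs in members and 4.55% in the others. The predicted alpha-defensins took 16.3% and 4.06%. How far such genes set the median was not tested. Counts of higher and lower genes refer to ratios past 2-fold. As background, 103 genes (1.21%) were higher and 1850 (21.8%) lower. Centred on the median gene, 388 (4.57%) were higher and 700 (8.24%) lower, so that higher genes made up 5.27% of those past 2-fold on the first scale and 35.7% on the second. The centred counts are given beside the others. With predicted alpha-defensins and Paneth granule genes also left out of the total and the genes counted, 254 genes were higher and 841 lower.

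All 4 PC markers were higher in members. Lyz1, the lysozyme of PC granules (chr10:117287797-117292868), stood at 48285 CPM (47641 to 48935) in members and 11623 (11512 to 11735) in the others, a ratio of 4.15 (4.09 to 4.22). Ang4, a secreted antimicrobial ribonuclease (chr14:51763878-51773590), stood at 24926 and 6187 CPM, a ratio of 4.03 (3.94 to 4.12). Nupr1, a stress-induced chromatin protein (chr7:126623249-126630861), stood at 1583 and 370 CPM, a ratio of 4.29 (3.91 to 4.70). Mmp7, the protease that activates pro-defensins (chr9:7692090-7699585), differed least, at 9027 and 3756 CPM, a ratio of 2.40 (2.32 to 2.49), which was 1.92 over all UMIs. The markers did not set the members apart from every other cell. Thinned to equal depth, 97.6% of members and 84.1% of the others had a Lyz1 UMI, 95.8% and 77.4% an Mmp7 UMI, 98.6% and 77.1% an Ang4 UMI, and 42.3% and 17.5% a Nupr1 UMI. Unthinned, the shares for Lyz1 were 99.7% and 93.9%, and for Nupr1 65.7% and 36.1%. In the 290 ENR+CD cells under 1% Defa (median 1926.5 UMIs), the thinned shares were 28.6%, 49.0%, 20.3% and 3.10%.

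Members varied widely in the same markers. Lyz1 ran from 0 to 21.6% of a member's UMIs without Defa, with a median of 4.08%, and 1 member had no Lyz1 UMI. Itln1 ran from 0.154% to 12.6% (median 4.61%), Ang4 from 0 to 10.2% (median 2.02%) and Mmp7 from 0.0830% to 3.25% (median 0.781%). The ranges overlap those of the other cells, whose highest values were 11.9% for Lyz1 and 10.6% for Itln1. Among members the rank correlation with the Defa share was 0.40 for Itln1, 0.39 for Tff3 and 0.37 for Clps, against 0.19 for Lyz1 and 0.07 for Agr2.

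Other granule genes followed the markers, with the Reg lectins as exceptions. Of 19 measured Paneth granule genes, 13 were at least 2-fold higher and 0 lower (16 and 0 centred). The median log2 ratio of the list was 1.84, against -0.53 over all genes. Itln1, a lectin that binds microbial glycans (chr1:171518122-171535294), stood at 50169 CPM in members and 14042 in the others, a ratio of 3.57 (3.52 to 3.63). Spink4, a protease inhibitor of secretory cells, stood at 14150 and 3959 CPM (ratio 3.57, 3.47 to 3.68). Clps, the pancreatic lipase cofactor colipase, stood at 5334 and 1315 CPM (4.06, 3.86 to 4.26), and the lipase-related gene Pnliprp2 at 505 and 108 CPM (4.67, 3.95 to 5.52). The pentraxin Mptx2 was closer, at 1848 and 890 CPM (2.08, 1.92 to 2.24). Below the limit it climbed with the Defa share, from 216 CPM in cells under 1% Defa to 1016 at 10% to 15% and 2347 at 15% to 20%. Among members its course was uneven, with 1648 CPM at 20% to 25%, 2854 at 25% to 30% and 971 at 30% or more. Reg3g, an antibacterial lectin of the epithelium, gave a ratio of 1.12 (0.972 to 1.29), its relative Reg3b one of 0.841 (0.748 to 0.943) and Reg4 one of 0.807 (0.727 to 0.893). Centred on the median gene, those of Reg3b and Reg4 came to 1.22 and 1.17.

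Near copies need care here. Lyz2, the lysozyme of myeloid cells, gave a ratio of 4.56 (4.01 to 5.18), but rested on 1.46 reads per UMI against 20.1 for Lyz1. Its UMIs per 100 Lyz1 UMIs were 1.75 (1.58 to 1.94) in members and 1.60 (1.48 to 1.72) in the others. The last 105 bases of the 2 coding sequences, each read across an intron on the minus strand (chr10:117288583-117289156 for Lyz1 and chr10:117278121-117278680 for Lyz2), are given with the bases of Lyz2 that differ from Lyz1 in capitals.
Lyz1: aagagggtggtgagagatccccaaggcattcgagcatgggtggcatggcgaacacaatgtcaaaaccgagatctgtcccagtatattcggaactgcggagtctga
Lyz2: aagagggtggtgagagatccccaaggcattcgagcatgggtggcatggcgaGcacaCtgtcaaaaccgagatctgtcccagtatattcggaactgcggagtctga
The whole coding sequences were 95.1% identical. Ang2 behaved likewise, with 1.03 reads per UMI and 1.80 UMIs (1.56 to 2.07) per 100 of Ang4 in members and 1.74 (1.57 to 1.92) in the others. Of immune cell markers, Cd14 and Cd74 had 1 UMI each in the members and Ptprc and Csf1r 0. For all 16 immune, stromal and endothelial genes in the table the members held 5 UMIs, with 9 of the 16 at 0, and the other cells 164. Gm9765, a pseudogene beside Itln1, had 1.07 reads per UMI. Counts of Lyz2, Ang2 and Gm9765 are uncertain, and the source of their UMIs was not tested.

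Genes with the largest ratios outside the family were few. Among genes of 100 or more UMIs, the 15 highest ratios included 10 predicted alpha-defensins and Lyz2. The remaining 4 were Tpsg1, a transmembrane tryptase of the mast cell protease locus (chr17:25369273-25374442), at 110 CPM in members and 22.7 in the others (ratio 4.85, 3.33 to 6.99), the chemokine Ccl6 at 162 and 37.1 CPM (4.36, 3.23 to 5.85), Pnliprp2 and Nupr1. Tpsg1, Pnliprp2 and Ccl6 had 31.4, 29.1 and 33.4 reads per UMI. Thinned, 6.64% of members and 1.34% of the others had a Tpsg1 UMI, against 0 of the 290 cells under 1% Defa, for which the exact interval reaches 1.26%. The 15 lowest ratios all rested on 0 to 3 UMIs in the members. Besides Apoa1, Scg3 and Zg16 they included the apolipoprotein gene Apoa2 with 1 UMI against 146 (0.0556, 0.0014 to 0.315), Prap1, a secreted epithelial protein, with 2 against 268 (0.0606, 0.0073 to 0.221), and Tph1, of serotonin synthesis in enterochromaffin cells, with 2 against 154 (0.105, 0.0126 to 0.387), a ratio that came to 1.90 when cells with 2 or more granin UMIs were left out.

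**Figure D4:**
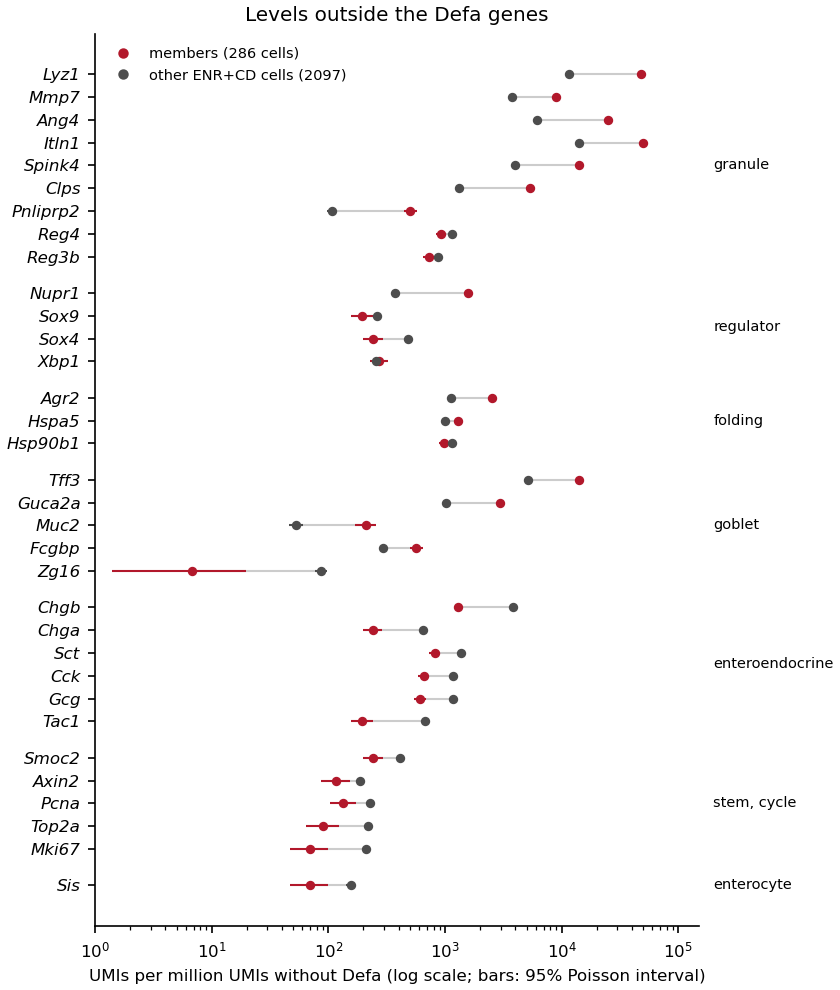
Level of named genes in the 286 members (red) and the 2097 other ENR+CD cells (grey), as CPM of UMIs without Defa on a log axis, with 95% Poisson intervals, grouped by role. Granule genes such as Lyz1 (48285 and 11623) and goblet genes such as Tff3 lie higher in members, and enteroendocrine and cell cycle genes lie lower.

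Regulators of the secretory lineage were sparse. Of 16 measured fate factors, 4 were at least 2-fold higher and 0 lower (6 and 0 centred). Besides Nupr1 these were Atoh1, the master factor of secretory fate, with 20 UMIs in members and 58 in the others (ratio 2.80, 1.59 to 4.72), Spdef, which matures goblet cells and PCs, with 29 and 97 (2.43, 1.54 to 3.71), and Bhlha15, which scales the secretory machinery, with 26 and 103 (2.05, 1.28 to 3.17). Gfi1, a repressor of the endocrine fate, had 6 UMIs in members and 6 in the others, too few to be measured. Sox9, which PC formation needs, gave a ratio of 0.749 (0.594 to 0.933), Sox4 one of 0.503 (0.410 to 0.611) and Xbp1, the factor of the unfolded protein response, one of 1.07 (0.876 to 1.29). Centred, those of Sox9 and Sox4 were 1.08 and 0.728.

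The secretory machinery stood above the median gene. Of 28 genes of protein folding and stress in the endoplasmic reticulum (ER), 3 were at least 2-fold higher and 0 lower (11 and 0 centred), with a median log2 ratio of 0.33. The 3 were Agr2, a disulphide isomerase of mucus cells and PCs (2507 and 1120 CPM; ratio 2.24, 2.09 to 2.39), Ern2, the epithelial stress sensor IRE1 beta (2.98, 1.93 to 4.52), and Herpud1, of ER-associated degradation (2.15, 1.72 to 2.67). Hspa5, the main ER chaperone, gave 1.29 (1.18 to 1.41) and Hsp90b1 0.848 (0.767 to 0.937). For granule exocytosis, 1 of 12 genes was at least 2-fold higher and 0 lower (5 and 0 centred). The higher gene was Sytl2, which tethers vesicles (2.68, 1.85 to 3.83), and Rab3d, of secretory granules, gave 1.68 (1.29 to 2.15).

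Among other genes of in vivo PCs, 7 of 14 were at least 2-fold higher and 0 lower (9 and 0 centred), Ramp1, a receptor partner, among them (3.67, 2.50 to 5.32). Cd24a, a surface marker of PCs, gave 1.32 (1.22 to 1.44). Niche ligands did not follow the granule genes. Wnt3, the Wnt of PCs, had 25 UMIs in members and 174 in the others (ratio 1.17, 0.734 to 1.78), the Notch ligand Dll4 had 12 and 74 (1.32, 0.651 to 2.44), and Wnt6 had 14 and 282 (0.403, 0.217 to 0.687). Of the 7 measured, 0 were higher and 2 lower (0 and 1 centred). Of 8 genes of metallothioneins and zinc transport 0 were higher and 1 lower (0 and 1 centred), and of 16 autophagy and Crohn genes 1 was higher, Atg7 (2.09, 1.13 to 3.67), and 1 lower (1 and 0 centred).

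Goblet genes split. Tff3, the trefoil peptide of goblet cells, stood at 14056 CPM in members and 5114 in the others (ratio 2.75, 2.67 to 2.83), Guca2a, the peptide guanylin, at 2978 and 1022 (2.91, 2.73 to 3.10), and Muc2, the gel-forming mucin, at 209 and 52.9 (3.95, 3.05 to 5.09). Fcgbp, which cross-links mucus, gave 1.94 (1.68 to 2.23). Zg16, a goblet lectin, had 3 UMIs in members and 313 in the others, a level 12.9-fold lower (4.36 to 62.7). Its ratio of 0.0778 became 0.310 at a limit of 15% and 0.390 with the predicted alpha-defensins in the rule. Few cells of either group carried Zg16. A UMI of it was found in 1.05% of members and 3.67% of the others, or thinned in 0.699% and 2.05%. Of 11 goblet genes measured, 6 were at least 2-fold higher and 2 lower (7 and 1 centred), and Agr2 and Sytl2 are on other lists too. At equal depth 9.79% of members and 2.77% of the others had a Muc2 UMI, against 1.03% of cells under 1% Defa.

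Enteroendocrine genes, by contrast, were lower in members, though not absent. Of 32 measured, 19 were at least 2-fold lower and 1 higher (10 and 1 centred), with a median log2 ratio of -1.18. Chgb, a granin of hormone granules, stood at 1287 CPM in members and 3808 in the others, a ratio of 0.338 (0.310 to 0.367). Chga, its partner, stood at 240 and 642 CPM (0.374, 0.305 to 0.454). Tac1, the substance P precursor, gave 0.290 (0.232 to 0.360), whereas the hormones Sct, Cck and Gcg lay closer to the median gene, at 0.592 (0.530 to 0.658), 0.557 (0.493 to 0.627) and 0.521 (0.459 to 0.590). When cells with 2 or more granin UMIs were left out, these became 1.23, 0.952 and 1.09, so that those of Sct and Gcg changed side. Scg3 had 1 UMI in members and 168 in the others (0.0483, 0.00122 to 0.273). Gast, encoding gastrin, was the 1 higher gene, with 21 and 65 UMIs (2.62, 1.52 to 4.34).

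Granin UMIs remained common among the members. Cells under 1% Defa did not hold a Chgb UMI more often than members. Chga, and 2 or more UMIs of both granins, were more frequent in those cells than in members, with overlapping intervals at equal depth. With cells thinned to 500 UMIs without Defa, 57 of 286 members (19.9%, 15.5% to 25%) held 2 or more UMIs of Chga and Chgb together, against 912 of 2097 others (43.5%, 41.4% to 45.6%). Unthinned, the shares were 42.0% and 74.3%. In the 290 cells under 1% Defa they were 27.6% thinned and 46.9% unthinned. A Chgb UMI was likewise found, after thinning, in 40.9% of members (35.2% to 46.9%), 61.6% of the others and 36.6% of cells under 1% Defa (31.0% to 42.4%), and a Chga UMI in 11.9%, 22.5% and 19.3%. The high Chgb level of cells under 1% Defa, 5765 CPM, thus came with a share of cells close to that of the members. When cells with 2 or more granin UMIs were left out of both groups, 166 members stayed, the Lyz1 ratio was 5.82 and 2 enteroendocrine genes were at least 2-fold lower. In barcodes under 1000 UMIs, Chgb stood at 3377 CPM and Lyz1 at 11808, close to their levels in the other cells, and the part of free RNA in these shares was not tested.

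Across the whole library the levels of the markers and granins changed step by step with the Defa share. From cells under 1% Defa (290 cells) to those at 30% or more (58 cells), Lyz1 went from 739 CPM (679 to 803) to 56943 (55481 to 58434), and Nupr1 from 56.9 (41.2 to 76.7) to 2456 (2160 to 2781). Chgb went from 5765 (5595 to 5939) to 386 (275 to 528), and Chga from 904 (838 to 975) to 129 (68.5 to 220). The order held through the members. Chgb was at 1807 CPM in the 149 members at 20% to 25%, 1133 in the 79 at 25% to 30% and 386 in the 58 above, with intervals that do not overlap. Lyz1 levelled off, at 39251, 56359 and 56943, the last pair within counting error, whereas Ang4 went on from 20087 to 24411 and 35830. Mmp7 had the flattest course of the markers, with 1725 CPM already in cells under 1% Defa and 10022 at the top. Since bins were drawn on Defa UMIs of the same cells, the trend is a description.

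**Figure D5:**
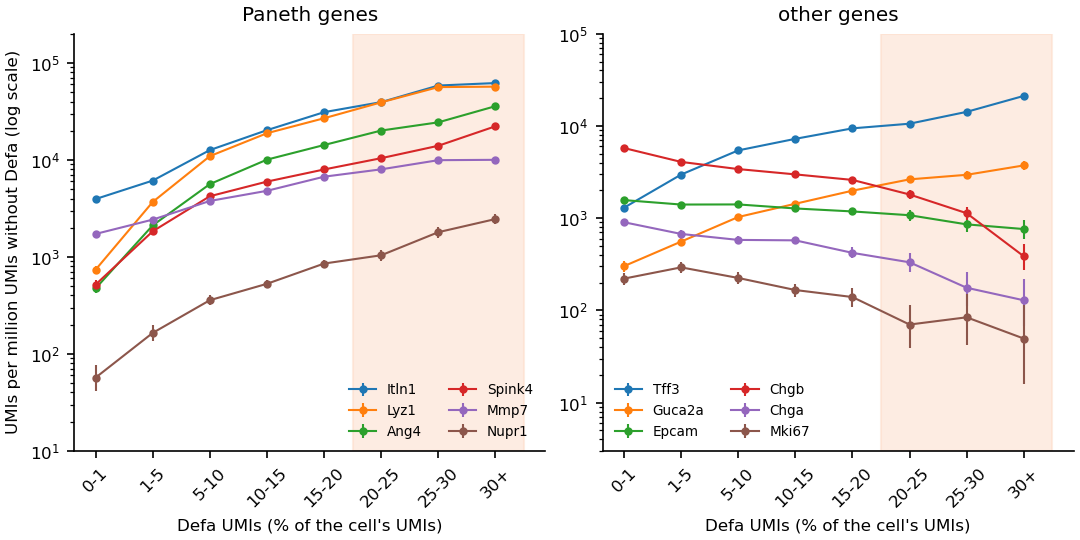
Level of named genes (CPM of UMIs without Defa, log axis, 95% Poisson intervals) in ENR+CD cells binned by their Defa share (%, x axis), with members on the shaded background. Paneth genes on the left climb from the lowest bin to the members, while Chgb on the right goes from 5765 to 386 and Chga from 904 to 129, and Tff3 climbs.

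Cell cycle genes were low in members, whereas for stem cell genes the comparison with all genes depended on the scale. Of 30 proliferation genes, 21 were at least 2-fold lower and 0 higher (9 and 0 centred), with a median log2 ratio of -1.24. When the predicted alpha-defensins were counted in the rule, which made 745 members, 0 of the proliferation genes and 5 of the enteroendocrine genes were 2-fold lower. Mki67, a marker of cycling cells, had 31 UMIs in members and 760 in the others (ratio 0.331, 0.223 to 0.474), Top2a, of chromosome separation, gave 0.412 (0.292 to 0.567) and Pcna, the replication clamp, 0.597 (0.451 to 0.776). Of 14 stem cell genes 2 were at least 2-fold lower and 0 higher (2 and 0 centred), among them Cdca7 (0.230, 0.122 to 0.398). Of all genes 21.8% were lower (8.24% centred), so the stem cell share was the smaller on the first scale only. Lgr5, the crypt stem cell receptor, gave 0.570 (0.364 to 0.855) and Smoc2 0.593 (0.483 to 0.721), both near the median gene at 0.691. Of 19 Wnt targets, 6 were lower and 1, Mmp7, higher (3 and 1 centred). Of 8 enterocyte genes 5 were lower and 0 higher (2 and 0 centred). The disaccharidase gene Sis gave 0.448 (0.301 to 0.643), and Apoa1, an apolipoprotein of absorptive cells, had 0 UMIs against 101, a level at least 4.15-fold lower with 3 counts as the floor. No tuft gene reached 50 UMIs. Of 3 Notch targets measured 0 passed in either direction, and of 15 immediate early and dissociation stress genes 0 passed, with Fos at 1.18 (1.03 to 1.34). Epcam, the epithelial adhesion molecule, gave 0.683 (0.616 to 0.754), the ratio of the median gene.

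Mitochondrial and ribosomal shares were lower in members, by an amount that followed the total used. Without Defa UMIs, mitochondrial transcripts made up 6.77% ± 3.89 (SD) of a member's UMIs and 10.1% ± 6.52 of those of another cell, and ribosomal protein transcripts 8.02% ± 2.23 and 9.74% ± 2.52. With the predicted defensins and the Paneth granule genes also removed, the mitochondrial shares were 9.65% and 11.1%, and the ribosomal shares 11.6% and 10.8%, the reverse of the first order. All 15 measured mitochondrial genes had ratios under 1, and 10 of 15 lay below the median gene. For the ribosomal proteins, 100 of 106 were under 1 but 28 below the median gene.

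Under the same limit, the 64 ENR cells resembled the members in part. Their Lyz1 level was 24901 CPM (against 48285 in members), Ang4 9452 (24926), Mmp7 3689 (9027) and Nupr1 457 (1583), while Spink4 was at 38501 (14150) and Clps at 10113 (5334). Muc2 stood at 529 CPM (209) and Reg4 at 2409 (919). The contrast with the rest of their own library was steeper for Lyz1, at 13.9 (13.2 to 14.5), Ang4, at 18.1 (16.8 to 19.5), and Mmp7, at 12 (10.7 to 13.5). Nupr1 was alike, with 4.31 (3.11 to 5.86) in ENR and 4.29 (3.91 to 4.70) in ENR+CD. Mptx2 gave 61.3 (49.2 to 76.4) in ENR and 2.08 in ENR+CD. For Chga the ENR ratio was 0.914 (0.600 to 1.34) and for Chgb 0.642 (0.514 to 0.792). Mitochondrial transcripts took 12.1% ± 7.18 of a rich ENR cell, against 6.77% ± 3.89 in members. Both lay below the rest of their own library, at 17.5% in ENR and 10.1% in ENR+CD. These values come from 1 library each, so medium and library cannot be told apart.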

How the data were processed

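Organoids were profiled by Seq-Well, with 1 array for each medium. Per the submitters' processing notes, reads were handled with bcl2fastq, STAR and Seurat on the mm10 build, and versions were not given in the sources used here. Whole-number UMI counts, not normalized, were deposited by the authors as a merged table of 6249 cells and as per-barcode tables, with read counts beside them. Between ENR+CD and ENR+CV the samples' per-barcode tables are exchanged, so library names in the merged table were followed.

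Cells of 1000 to under 8000 UMIs and 400 or more genes were kept, and doublets were neither called nor removed. UMIs were summed over cells, and levels and ratios were computed without the 13 Defa symbols, with exact Poisson and binomial intervals at 95%. Genes of 50 or more UMIs were measured and counted past 2-fold, and detection was compared after thinning to 500 UMIs (seed 17). The median of a list stands beside that of all genes. Coding sequences came from GENCODE vM21, which held 93.5% of symbols, and promoters from RefSeq, both on GRCm38. Python 3.11.15, NumPy 2.4.6, SciPy 1.17.1, pandas 2.3.3 and matplotlib 3.10.9 were used, and the code was tested on simulated data.

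Genes were named by rule: the 4 markers, the 4 genes of each list with most UMIs, the 15 largest ratios in each direction among genes of 100 or more UMIs, the 10 leading Defa genes, and 10 further genes such as Epcam and Zg16. Outside the rule, Ang2, Atg7, Atoh1, Bhlha15, Cdca7, Clps, Csf1r, Dll4, Ern2, Gast, Gfi1, Gm9765, Herpud1, Lgr5, Mptx2, Muc2, Ptprc, Ramp1, Reg3b, Reg3g, Reg4, Spdef, Sytl2 and Tac1 were chosen after their values were seen. The members and all lists were chosen with earlier results of these data known. Alternatives to the limits, the total, the comparison cells and the filters were tried. Depth is the UMI total per group (607348 in members and 3931040 in the others). Some items are not reported here.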

Additional observations from a re-analysis of the deposited data

Results flagged for a closer look

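Below the limit of 1000 UMIs, 274 of 5493 barcodes of the ENR+CD library (4.99%, exact interval 4.43% to 5.6%) also had 20% or more Defa UMIs, and they were not used in any comparison above. Such barcodes made up 7.08% of those with 500 to under 1000 UMIs and 2.88% of those with 200 to under 500. How many of them hold a cell was not tested.

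For a pair of Reg genes the ratio of defensin-rich to other cells lay on opposite sides of 1 in the media. Reg4 gave 2.02 (1.76 to 2.30) in ENR and 0.807 (0.727 to 0.893) in ENR+CD. Reg3b gave 1.24 (0.253 to 3.72) in ENR, on 3 UMIs and with an interval that spans 1, and 0.841 (0.748 to 0.943) in ENR+CD. Centred on the median gene, the ENR+CD ratios were 1.17 for Reg4 and 1.22 for Reg3b, on the same side as in ENR, so the opposition depends on the total used. With 1 library each, the difference between the media was not tested.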

How the results depend on the processing

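Values are ratios of members to the other ENR+CD cells (4.15 for Lyz1, 2.40 for Mmp7, 4.03 for Ang4, 4.29 for Nupr1 and 0.374 for Chga), counts of genes past 2-fold, and differences in the mean mitochondrial and ribosomal shares (-3.30 and -1.72 points). Only values that moved by more than their counting interval, by more than 1.5 times or against their sign are given. With a Defa limit of 15%, the values were 619 members, Lyz1 4.03, Ang4 3.93, Chga 0.495, 728 genes lower, mitochondrial share -2.95 points, ribosomal share -1.17 points, 11 enteroendocrine genes lower and 11 proliferation genes lower. With a limit of 30% they were 58 members, Lyz1 3.9, Ang4 4.75, Nupr1 5.42, Chga 0.211, 279 genes higher, 3587 genes lower and mitochondrial share -4.27 points. With the predicted alpha-defensins counted in the rule and removed, they were 745 members, Lyz1 4.48, Mmp7 2.52, Ang4 4.48, Chga 0.609, 321 genes lower, mitochondrial share -2.42 points, ribosomal share -0.32 points, 5 enteroendocrine genes lower and 0 proliferation genes lower. Without the filters on cells they were 351 members, Lyz1 4.9, Mmp7 2.7, Ang4 4.5, Nupr1 5.63 and ribosomal share -2.02 points. Without cells of 2 or more granin UMIs they were 166 members, Lyz1 5.82, Mmp7 2.59, Ang4 5.87, Nupr1 6.19, 1036 genes lower, mitochondrial share -4.12 points, ribosomal share -2.68 points, 2 enteroendocrine genes lower and Tph1 1.90, the last the reverse of its ratio of 0.105 over all cells. Over all UMIs they were Lyz1 3.31, Mmp7 1.92, Ang4 3.21, Nupr1 3.42, Chga 0.298, 60 genes higher, 3361 genes lower, mitochondrial share -4.21 points and ribosomal share -2.96 points. With the predicted alpha-defensins removed from the total only, they were Lyz1 4.76, Mmp7 2.76, Ang4 4.62, Nupr1 4.91, 155 genes higher, mitochondrial share -2.55 points and ribosomal share -0.756 points. As means over cells of equal weight, they were Lyz1 3.58, Mmp7 2.19, Ang4 3.41 and Nupr1 3.49. With members chosen on a random part of the UMIs and compared on the rest, they were Lyz1 4.08, Chga 0.458 and mitochondrial share -3.5 points. In cells of 1000 to under 4000 UMIs they were Lyz1 3.77, Mmp7 2.22, Ang4 3.45, Nupr1 3.67 and ribosomal share -1.6 points. Against cells under 5% Defa only, they were Lyz1 22.8, Mmp7 4.4, Ang4 20.1, Nupr1 14.8, Chga 0.302, mitochondrial share -4.94 points and ribosomal share -2.21 points. Centred on the median gene they were Lyz1 6.02, Mmp7 3.48, Ang4 5.83, Nupr1 6.21, Chga 0.542, 388 genes higher, 700 genes lower, 10 enteroendocrine genes lower and 9 proliferation genes lower. With as many cells of largest Defa share of reads as members, they were Lyz1 4.07, Mmp7 2.31, Ang4 3.8, mitochondrial share -3.43 points and ribosomal share -1.56 points. With defensins and Paneth granule genes removed from the total, they were Nupr1 5.78, Chga 0.505, 254 genes higher, 841 genes lower, mitochondrial share -1.41 points, a ribosomal share of 0.768 points, the reverse of the first sign, and 10 proliferation genes lower. Without the filter on low counts they were 1042 genes higher and 7584 genes lower. With a filter of 200 UMIs they were 51 genes higher, 445 genes lower, 9 enteroendocrine genes lower and 10 proliferation genes lower. The choice by reads, the removal of granule genes and a limit to genes of 5 or more reads per UMI were added after seeing the data, and the cause of a move was not tested beyond what each setting itself takes away. Of 295 further values for the 22 named genes past 2-fold, 269 stayed past it, 25 kept their direction within it and 1, that of Tph1, took the opposite one. No paired analysis was possible because each medium gave 1 library and no result comes from a test, and for the same reason no replicate could be left out. Depth limits the sparse regulators most: Gfi1, Atoh1, Spdef and Dll4 rest on 6 to 29 UMIs in the members.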
